A study of Homo sapiens with 9 samples.

Results

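Respiratory chain and ATP synthase genes were followed as a group in HL-60 clone 15 cells. HL-60 is a human promyelocytic leukaemia cell line, and clone 15 is a subline of it. The members are the named genes of the array table whose symbols begin with NDUFA, NDUFB, NDUFC, NDUFS, NDUFV, UQCR, COX4 to COX8 or ATP5, or are SDHA to SDHD, without pseudogenes and antisense genes. The rule found 27 of the 14778 named genes. Of these, 17 belong to complex IV, 5 to complex III and 3 to the ATP synthase, and 2 encode complex I assembly factors. Of 96 protein-coding genes in RefSeq that the same patterns match, the other 69 are not analysed here, and they include every subunit of complexes I and II. The results therefore speak of complex IV and part of complex III far more than of the whole chain. Total RNA of 9 samples was hybridised to Affymetrix whole-transcript arrays, 3 samples in each of 3 groups, and the study asked which genes change with RhoH. All cells carried a lentiviral construct that 4-hydroxytamoxifen (4-OHT) switches on. The uninduced RhoH group had the RhoH construct and no drug, the induced RhoH group had that construct and 100 nM 4-OHT, and the GFP group had a GFP control construct and the same dose. GFP cells without 4-OHT are not among the groups, so the drug, the construct and the transduced population cannot be told apart where GFP cells are compared with uninduced RhoH cells. Between induced and uninduced RhoH cells, 4-OHT itself and the switching on of RhoH cannot be told apart. Between induced RhoH and GFP cells, the construct and the transduced population cannot be told apart. The samples are described as biological replicates, and whether they came from separate cultures is not stated, so the p-values measure the spread between these samples.

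Oxidative phosphorylation couples the passage of electrons from NADH and succinate to oxygen with the pumping of protons across the inner mitochondrial membrane, and the ATP synthase uses the resulting gradient to make ATP. Complex III passes electrons from ubiquinol to cytochrome c, and complex IV, cytochrome c oxidase, passes them on to oxygen. The catalytic core of complex IV is encoded in mitochondrial DNA, while the surrounding subunits, the COX genes here, are nuclear, and several of them exist in a general form and in forms known from muscle, lung or testis.

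Each value below is a log2 signal after RMA, which sets the probe signals of all arrays on one distribution before summary per probe set. A difference of log2 values is a log2 fold change. The median of the deposited values over all probe sets still ran from 5.43 (GFP replicate 2) to 5.55 (both RhoH replicate 1 arrays). A gene was called where limma's p-value, adjusted over all 14778 genes by the method of Benjamini and Hochberg, was under 0.05. Correlations between arrays of a group, taken across all probe sets, were at least 0.974 within the RhoH groups and 0.995 to 0.996 within the GFP group. The signal of RHOH was 5.21 ± 0.06 (SD, n = 3) without the drug and 5.59 ± 0.14 with it in RhoH-labelled arrays, but 5.93 ± 0.02 in GFP-labelled ones. The GFP label thus holds the highest RHOH signal, against what the labels would give, and every direction below is that of the libraries labelled so. Its difference on induction (log2 fold change 0.38, limma adjusted p = 0.0451) stayed between 0.32 and 0.45 on removal of single arrays, but it no longer passed the threshold on removal of any one of 8 arrays (highest adjusted p = 0.171) and passed it on removal of induced RhoH replicate 3 (0.0184). Of 10 promyelocyte markers, 6 were measured, and their mean log2 signal was 11.56 to 11.58 on the uninduced RhoH arrays, 11.22 to 11.41 on the induced RhoH arrays and 10.31 to 10.33 on the GFP arrays. Of 13 markers of other cell types 3 were measured, of which EPCAM and ALB lay in the dimmest 25% of all genes and KRT18 did not (8.80 over the 9 arrays). In bulk samples, fewer cells of a type and less RNA per cell cannot be told apart.

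The members differed most between uninduced RhoH and GFP cells. In that comparison 6 of 27 members were called, all higher in uninduced RhoH cells and none lower, which is 22.2% of the members. Among all genes tested 15.3% were called in either direction, 6.01% higher and 9.27% lower. The called members were UQCRHL of complex III and COX7C, COX6A1, COX5A, COX8C and COX7B of complex IV. The COX6A1 call comes from the brighter of its probe sets, and the dimmer one differed the other way. The groups of arrays did not overlap for 11 members, all of them higher in uninduced RhoH cells, against 19.2% of all genes in that direction and 37.3% in either. The median log2 fold change over the 27 members was 0.16, beside 0.05 over all genes, and 25 members lay above 0 against 59.8% of all genes. Of the 6 measured promyelocyte markers, 5 were called higher in uninduced RhoH cells by limma, such as CTSG, the gene of cathepsin G, with a log2 fold change of 2.47 (adjusted p = 2.32e-06). SPI1, a transcription factor of myeloid cells, was not called and lay the other way (9.07 in uninduced RhoH against 9.29 in GFP cells). Their part in the result was not tested.

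UQCRHL, an intronless copy of the complex III hinge protein gene UQCRH, had the largest difference among the members. Its log2 signal was 9.84, 9.97 and 9.85 on the uninduced RhoH arrays, 9.44, 9.22 and 9.82 on the induced RhoH arrays and 8.94, 9.14 and 9.15 on the GFP arrays. Every uninduced RhoH array was above every GFP array, and induced RhoH replicate 3 came close to the uninduced level. The difference between uninduced RhoH and GFP was 0.81 (SE 0.14), or 1.75-fold, with a limma adjusted p of 0.00332. Its near-identical parent UQCRH was at 7.25 ± 0.26 in uninduced RhoH and 6.95 ± 0.09 in GFP cells (0.30, adjusted p = 0.195), and since probes for the pair can take up each other's transcripts, which of the genes the UQCRHL signal belongs to is uncertain.

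COX7C, a small nuclear subunit of complex IV, came next. It was at 7.26, 7.29 and 7.30 on the uninduced RhoH arrays, 7.10, 6.88 and 7.12 on the induced RhoH arrays and 6.85, 6.59 and 6.64 on the GFP arrays. The 3 groups did not overlap at any point, with uninduced RhoH highest and GFP lowest. The difference between uninduced RhoH and GFP was 0.59 (SE 0.10), or 1.51-fold (limma adjusted p = 0.00271). UQCRHL and COX7C were called in each of the 18 alternatives described in the closing section, with a highest adjusted p of 0.0201 and 0.0180.

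COX5A, a nuclear subunit that binds the inner face of the oxidase, was at 9.79, 9.81 and 9.83 on the uninduced RhoH arrays, 9.65, 9.60 and 9.93 on the induced RhoH arrays and 9.51, 9.45 and 9.36 on the GFP arrays. The induced arrays were spread over the widest range, with replicate 3 above all uninduced arrays. The difference between uninduced RhoH and GFP was 0.37 (SE 0.10, limma adjusted p = 0.0341). COX7B, another small subunit of complex IV, was at 8.10, 8.13 and 8.01 in uninduced RhoH, 7.80, 7.89 and 7.88 in induced RhoH and 7.83, 7.76 and 7.73 in GFP cells. Here the induced RhoH and GFP arrays overlapped and the uninduced arrays stood above both. The difference between uninduced RhoH and GFP was 0.31 (SE 0.08, limma adjusted p = 0.0243).

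COX6A1, the general form of subunit VIa, was at 12.80, 12.67 and 12.67 in uninduced RhoH, 12.60, 12.36 and 12.78 in induced RhoH and 12.28, 12.37 and 12.37 in GFP cells, with a difference between uninduced RhoH and GFP of 0.37 (limma adjusted p = 0.0467). This gene has a second, much dimmer probe set that differed the other way between the same groups, by -0.38 (adjusted p = 0.313 over all probe sets), and the mean of both probe sets gave -0.01, so no direction holds for COX6A1. The genome positions of the 2 probe sets were not given. Identifiers of the members' probe sets run by chromosome where a chromosome is listed, and COX6A1 lies on chromosome 12. By identifier, the dimmer probe set falls between those of COX8A on chromosome 11 and COX8C on chromosome 14. The brighter one, which gave the call, falls between those of COX7C on chromosome 5 and COX7A2 on chromosome 6. Whether the brighter one reads COX6A1 itself or a near-identical copy was not tested. Without COX6A1 the called members number 5. COX8C, the testis form of subunit VIII, was at 4.01, 4.17 and 4.04 in uninduced RhoH, 4.06, 4.01 and 3.97 in induced RhoH and 3.90, 3.64 and 3.71 in GFP cells (0.32, limma adjusted p = 0.0429). It lies in the dimmest 25% of genes on these arrays, where RMA compresses differences and a signal need not be expression.

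**Figure D1:**
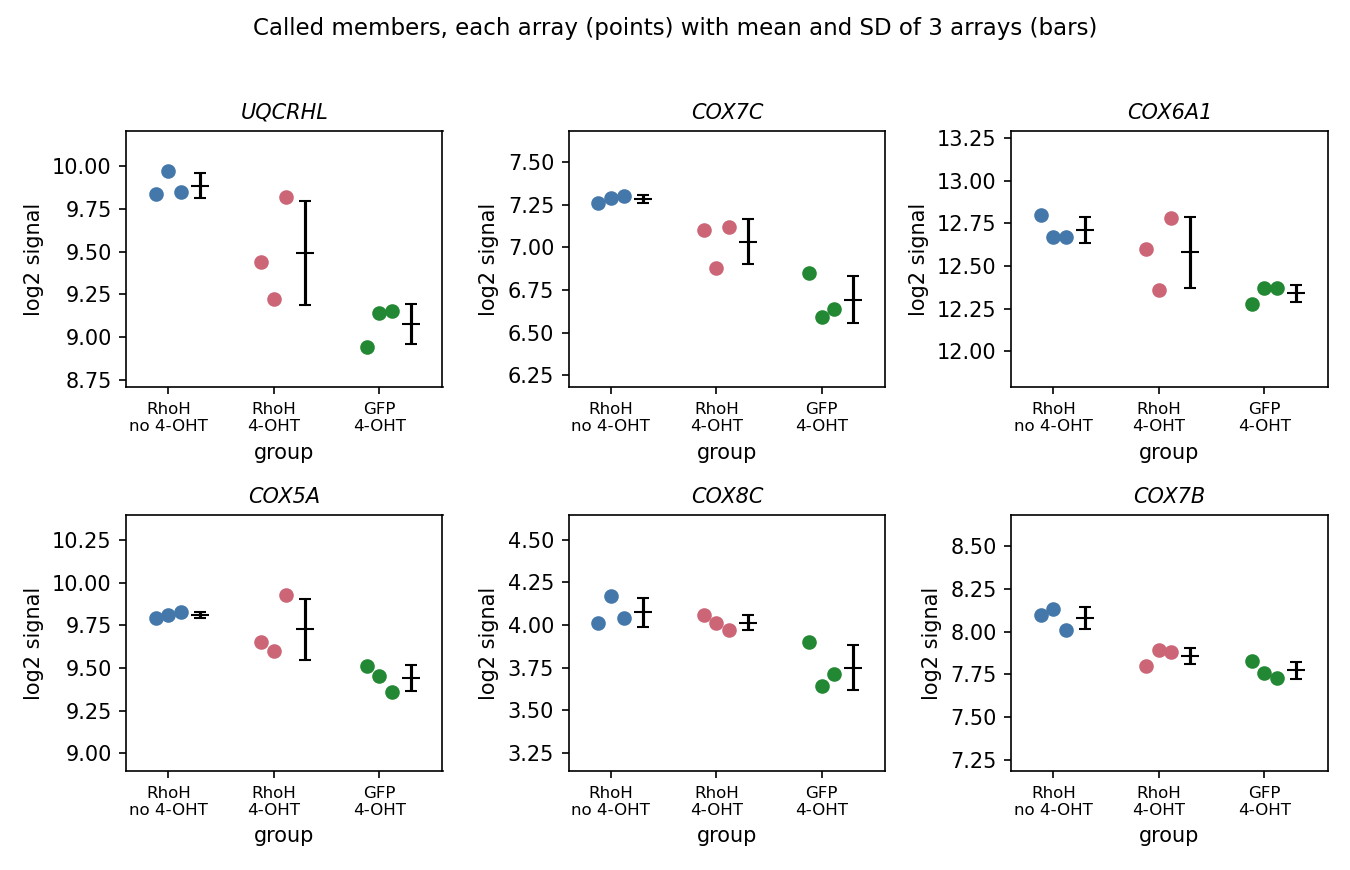
Log2 signal (y axis, one panel per gene, each with the same span) of the 6 members called between uninduced RhoH and GFP cells, in the 3 groups (x axis). Points are single arrays and bars are the mean and SD of 3 arrays; every uninduced RhoH point lies above every GFP point, and UQCRHL is the widest apart at 9.89 against 9.08.

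Except for UQCRHL and COX7C, the calls were sensitive to single arrays. The count of 6 became 2 without uninduced RhoH replicate 2, GFP replicate 2 or GFP replicate 3, and 3 without uninduced RhoH replicate 3 or GFP replicate 1. It was also 2 with all 43550 probe sets in the test, and 10 with array weights.

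Bases before the annotated start are shown as promoter sequence for some members in RefSeq's promoter table. The table (GRCh38.p14) holds 22 of the 27 members, and 5 of the 6 called ones. The last 120 bases before the start are printed 5′ to 3′ on the gene's strand for COX7C, COX7B and COX5A, which were called, and for COX8A and UQCRC1, which were not. Capitals mark matches, on either strand, to 3 motifs of factors known for nuclear genes of mitochondria: GCGC, 1 base of any kind and TGCGC for NRF1, CCGGAAG for ETS factors such as GABP, and AAGATGG for YY1.
COX7C (chr5:86617821-86617940, + strand): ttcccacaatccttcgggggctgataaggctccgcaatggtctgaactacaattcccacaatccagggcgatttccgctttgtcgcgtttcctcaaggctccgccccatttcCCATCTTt
COX7B (chrX:77899348-77899467, + strand): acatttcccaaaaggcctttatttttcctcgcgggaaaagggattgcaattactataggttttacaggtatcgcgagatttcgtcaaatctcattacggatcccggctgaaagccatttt
COX5A (chr15:74938074-74938193, - strand): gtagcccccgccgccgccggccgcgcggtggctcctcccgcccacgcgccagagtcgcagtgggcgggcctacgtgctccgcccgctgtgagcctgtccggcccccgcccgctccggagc
COX8A (chr11:63974500-63974619, + strand): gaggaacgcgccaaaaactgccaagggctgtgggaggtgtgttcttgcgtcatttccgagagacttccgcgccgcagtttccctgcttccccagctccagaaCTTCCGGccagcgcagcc
UQCRC1 (chr3:48609647-48609766, - strand): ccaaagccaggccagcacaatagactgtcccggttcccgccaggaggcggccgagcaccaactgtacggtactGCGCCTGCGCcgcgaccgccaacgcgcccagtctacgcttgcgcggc
COX7C has a YY1 match 8 to 2 bases before its start, COX8A an ETS match 18 to 12 bases before it, and UQCRC1 an NRF1 match 47 to 38 bases before it. COX7B and COX5A have no match to these letters in the 250 bases searched. Of the other called members, COX6A1 has an ETS match and COX8C an NRF1 match. Over the 250 bases before the start, the ETS letters were found in 7 of the 22 members (31.8%), against 10.2% of the 27305 genes of the table and 15.1% of the protein-coding genes tested here. The NRF1 letters were found in 3 members (13.6%, against 6.2% and 9.4%) and the YY1 letters in 1 (4.5%, against 4.5% and 4.4%). Matches occur both in called and in uncalled members, and a match is a description of the letters, not a binding site.

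The other general subunits of complex IV did not pass the test between uninduced RhoH and GFP cells. COX4I1, the general form of subunit IV, was at 11.60, 11.59 and 11.65 in uninduced RhoH, 11.54, 11.50 and 11.81 in induced RhoH and 11.46, 11.40 and 11.40 in GFP cells. The GFP arrays were below all RhoH arrays of both groups, by 0.19 (adjusted p = 0.240) and 0.20 (adjusted p = 0.351) in the mean. COX7A2, the general form of subunit VIIa, was at 8.78, 8.65 and 8.67, then 8.62, 8.54 and 8.79, then 8.18, 8.57 and 8.43 in the same order of groups, and its difference of 0.31 between uninduced RhoH and GFP had an adjusted p of 0.116. COX8A, the general form of subunit VIII, was at 10.99, 11.07 and 11.10 in uninduced RhoH, 10.85, 11.02 and 10.92 in induced RhoH and 11.10, 10.98 and 11.06 in GFP cells. For COX8A the uninduced and GFP arrays overlapped, and the 95% confidence interval of their difference ran from -0.18 to 0.19. COX5B (0.04), COX6B1 (0.05) and COX6C (0.12), further nuclear subunits, also had intervals for this difference that included 0.

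COX7A2L, which resembles subunit VIIa and is known for joining complexes III and IV into supercomplexes, was at 7.85, 7.97 and 7.85 in uninduced RhoH, 7.62, 7.90 and 7.78 in induced RhoH and 7.82, 8.14 and 7.83 in GFP cells. All 3 groups overlapped, and its profile over the 9 arrays had little relation to that of the other members (Pearson r = -0.18 with their mean, a description over 9 arrays).

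The forms known from other tissues showed no called difference other than that of COX8C. COX4I2, the form of subunit IV known from lung, was at 6.84, 6.74 and 6.74 in uninduced RhoH, 6.67, 6.74 and 6.92 in induced RhoH and 6.85, 6.38 and 6.51 in GFP cells, with overlap of all groups. COX6A2, the heart and muscle form of subunit VIa, was at 6.44, 5.65 and 5.90, then 6.17, 5.39 and 6.07, then 5.82, 5.52 and 6.18, the widest spread within groups of any member (pooled SD 0.386). COX7A1, the heart and muscle form of subunit VIIa, was at 4.71, 4.73 and 4.73, then 4.70, 4.75 and 4.85, then 4.78, 4.50 and 4.69. COX7A1 and the testis form COX7B2 lie, with COX8C, in the dimmest 25% of genes. COX6B2, a testis form of subunit VIb, was at 5.31, 5.33 and 5.19 in the means of uninduced RhoH, induced RhoH and GFP cells.

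In complex III, 1 of 5 members, UQCRHL, was called in uninduced RhoH against GFP cells, as higher. That is 20%, beside 6.01% of all genes called higher and 15.3% called in either direction, and it rests on 1 gene. All 5 fold changes were above 0, between 0.11 and 0.81, where 59.8% of all genes were above 0. Those of UQCRHL and UQCRH need not be separate, since their probes can take up each other's transcripts. UQCRC1 and UQCRC2 encode the core proteins on the matrix side. UQCRC1 was at 9.58 ± 0.03 in uninduced RhoH, 9.50 ± 0.20 in induced RhoH and 9.42 ± 0.05 in GFP cells, and UQCRC2 at 11.13 ± 0.04, 11.12 ± 0.18 and 11.01 ± 0.03. For both, every uninduced RhoH array was above every GFP array, although neither difference was called (0.16, adjusted p = 0.389, and 0.12, adjusted p = 0.496). UQCRB, a subunit that contacts cytochrome b, differed by 0.11 with overlapping arrays (adjusted p = 0.596).

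Of the 3 ATP synthase genes none was called in any comparison. ATP5IF1 encodes the inhibitor that holds the enzyme back from splitting ATP. It was at 6.32, 6.44 and 6.56 in uninduced RhoH, 6.38, 6.34 and 6.68 in induced RhoH and 6.14, 6.35 and 6.38 in GFP cells, and all groups overlapped. ATP5MJ and ATP5MK encode small membrane subunits, and their differences between uninduced RhoH and GFP were 0.18 (adjusted p = 0.374) and 0.30 (adjusted p = 0.225), with no overlap of the arrays for ATP5MK only. The complex I assembly factors NDUFAF7, a methyltransferase acting on a complex I subunit, and NDUFAF8 differed by -0.14 and 0.21 in the same comparison, with overlap. NDUFAF7 was at 7.62 and 7.52 on the replicate 1 arrays of uninduced and induced RhoH and between 7.96 and 8.13 on the other 7 arrays, so its spread follows those 2 arrays rather than the groups.

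**Figure D2:**
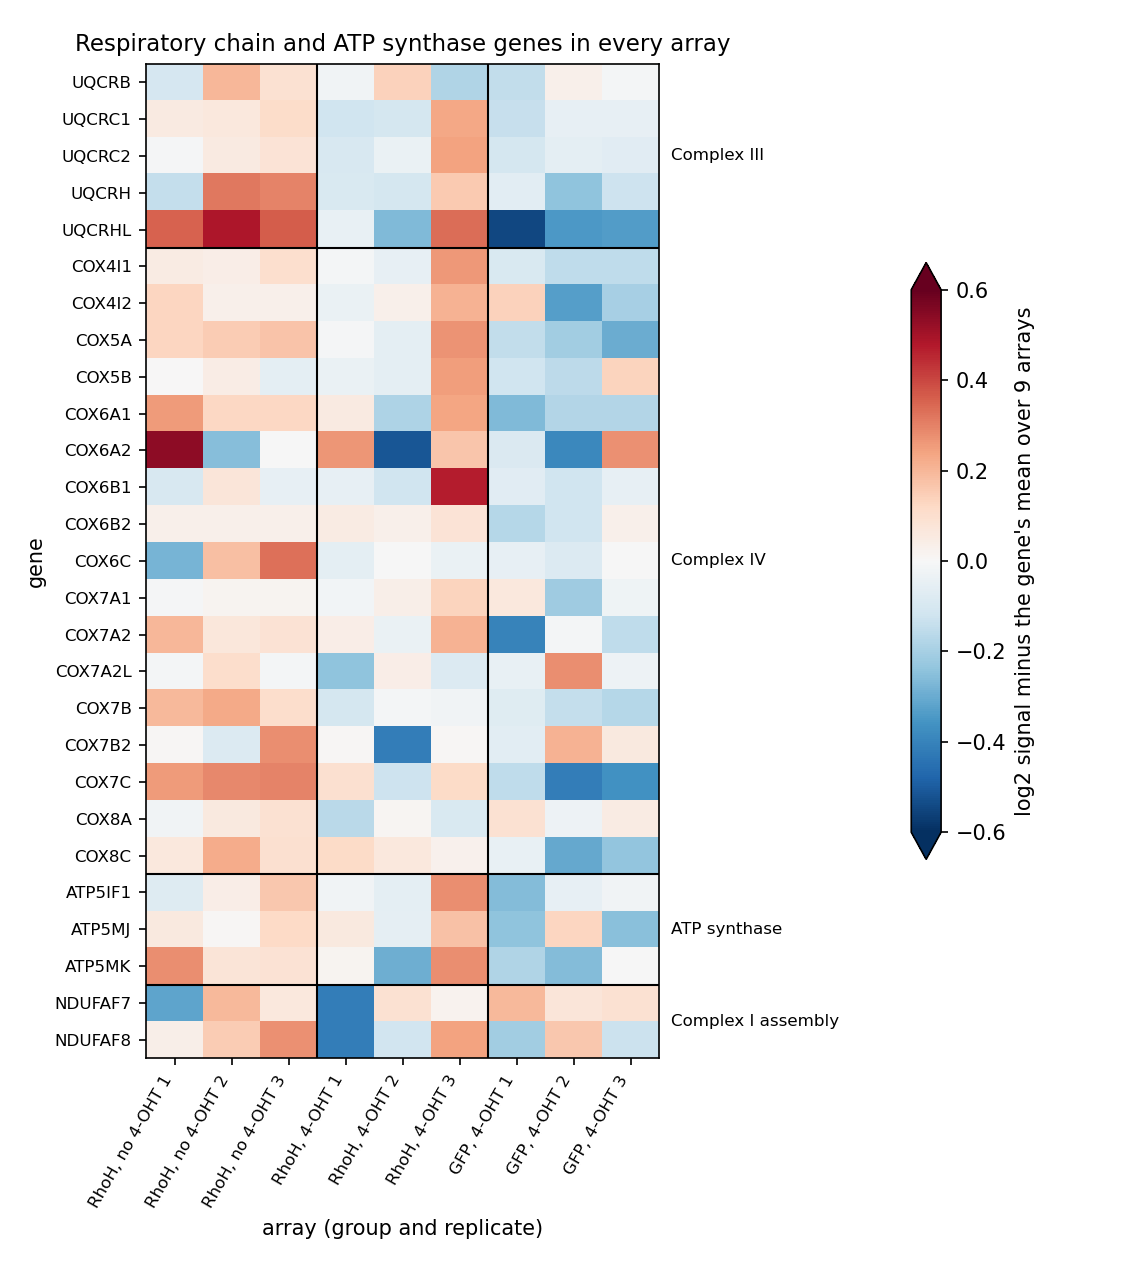
Heat map of the log2 signal of each member minus its own mean over the 9 arrays (colour, red above and blue below the mean), with genes in rows by complex and arrays in columns by group. The uninduced RhoH columns are mostly red and the GFP columns mostly blue, and induced RhoH replicate 3 is redder than the other induced arrays.

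On induction, that is with 4-OHT against without it in RhoH cells, no member was called. Among all genes 3.78% were called, 3.02% higher and 0.751% lower. With an unadjusted p below 0.05 there were 0 members higher and 3 lower, against 8.58% and 5.89% of all genes. The median log2 fold change was -0.08, beside 0.00 over all genes, and 8 of 27 members lay above 0, against 48.9% of all genes. Removal of single arrays moved this median from -0.12, without induced RhoH replicate 3, to -0.02, without induced RhoH replicate 2. The 3 members with an unadjusted p below 0.05 were COX7B at -0.22 (limma adjusted p = 0.189), UQCRHL at -0.39 (0.206) and COX7C at -0.25 (0.260). They are also the members whose induced and uninduced arrays did not overlap, all 3 lower and 0 higher, where 5.64% of all genes were lower without overlap and 8.9% higher. Of the promyelocyte markers, CTSG was called lower on induction (-0.83), and its part in these values was not tested. Next by p-value were NDUFAF8 at -0.25 (adjusted p = 0.60) and COX8A at -0.12 (adjusted p = 0.629), both with overlapping arrays. NDUFAF8, which stabilises another complex I assembly factor, was at 7.74, 7.86 and 7.98 in uninduced RhoH, 7.29, 7.59 and 7.95 in induced RhoH and 7.50, 7.87 and 7.58 in GFP cells.

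The fit bounds the difference in RMA signal between these induced and uninduced arrays, for each member by itself. The 95% confidence intervals of all 27 members lay between -0.71 (UQCRHL) and 0.45 (COX6A2), so a change of 1 log2 unit, or 2-fold, was outside each member's interval. For 23 members the interval lay within 0.5 log2 units of 0. These intervals use a spread pooled over all 3 groups, the GFP arrays included. For UQCRHL the SD was 0.30 in induced RhoH, 0.07 in uninduced RhoH and 0.12 in GFP cells, so pooling narrows its interval. Over all members, the SD of deviations from the group mean was 0.12 to 0.151 on induced RhoH, 0.083 to 0.148 on uninduced RhoH and 0.097 to 0.133 on GFP arrays. Without induced RhoH replicate 3, UQCRHL passed the threshold as lower on induction (-0.56, limma adjusted p = 0.0249), and with array weights it did so too (-0.56, adjusted p = 0.0241).

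Between induced RhoH and GFP cells, both with 4-OHT, no member was called either, where 4.49% of all genes were, 1.74% higher and 2.75% lower. With an unadjusted p below 0.05 there were 5 members higher and 0 lower, against 7.83% and 8.54% of all genes. The 5 were COX7C at 0.34 (limma adjusted p = 0.103), UQCRHL at 0.42 (0.163), COX5A at 0.28 (0.180), COX8C at 0.26 (0.180) and COX7A2 at 0.26 (0.303). The median log2 fold change over the members was 0.13, beside 0.03 over all genes, and 22 of 27 members lay above 0 against 57.9% of all genes. The arrays did not overlap for COX7C, UQCRHL, COX5A, COX8C and COX4I1, all higher in induced RhoH, where 11.1% of all genes were (22.5% in either direction). Of the 6 promyelocyte markers 5 were called higher in induced RhoH than in GFP cells, and their part was not tested. The intervals lay between -0.57 (NDUFAF7) and 0.73 (UQCRHL). Each pair of comparisons shares a group of arrays, so the values of a member in the 3 comparisons are not independent of each other.

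**Figure D3:**
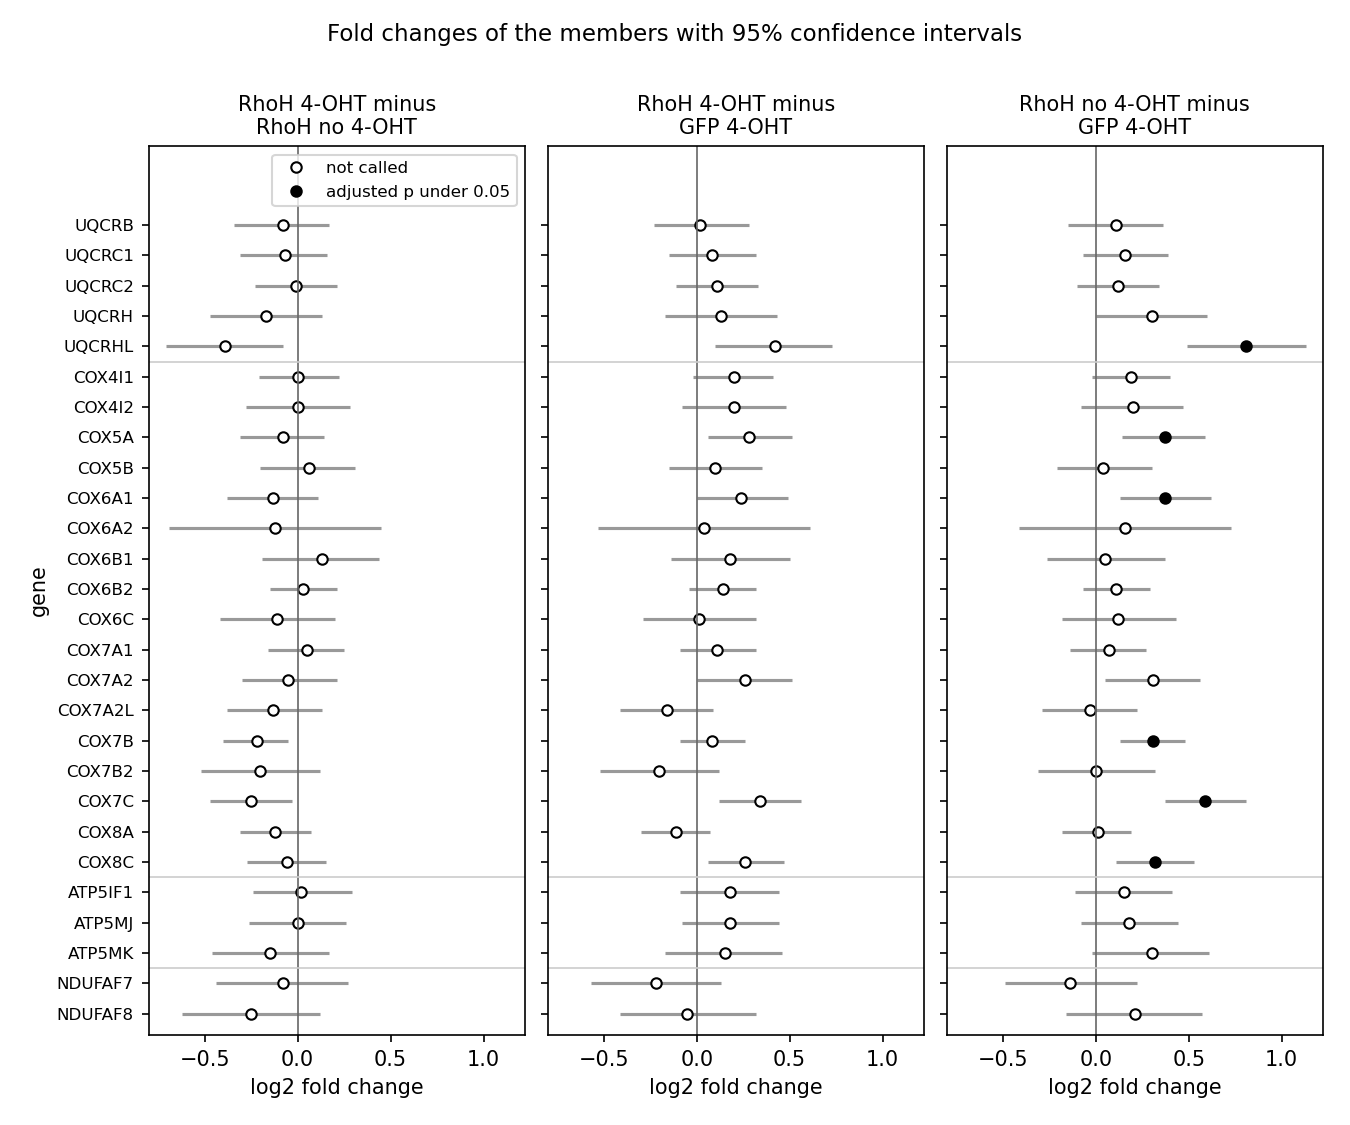
Log2 fold change (x axis) of each member (y axis, by complex) in the 3 comparisons, with 95% confidence intervals from limma as lines. Filled points are called at an adjusted p under 0.05 and occur only between uninduced RhoH and GFP cells, all 6 to the right of 0.

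Seen array by array, the set was highest on one induced array. The median deviation of the 27 members from each gene's mean over the 9 arrays was 0.03, 0.07 and 0.09 on the uninduced RhoH arrays, -0.02, -0.05 and 0.18 on the induced RhoH arrays and -0.11, -0.12 and -0.05 on the GFP arrays. The uninduced RhoH and GFP arrays did not overlap, and the induced arrays ran from the level of the highest GFP array to above all uninduced arrays. The 3 group means were 0.06 ± 0.03 (SD, n = 3), 0.04 ± 0.13 and -0.09 ± 0.04. Induced RhoH replicate 3 was the highest array of its group for 18 of the 27 members, and over all genes its median deviation was 0.05, the highest of the 9 arrays. The median of induced RhoH against GFP was 0.07 without that array and up to 0.18 without other single arrays, in place of 0.13. The group means stood in the order uninduced RhoH, induced RhoH, GFP for 14 members and in the order induced RhoH, uninduced RhoH, GFP for 8, so GFP was lowest for 22 of 27 members.

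**Figure D4:**
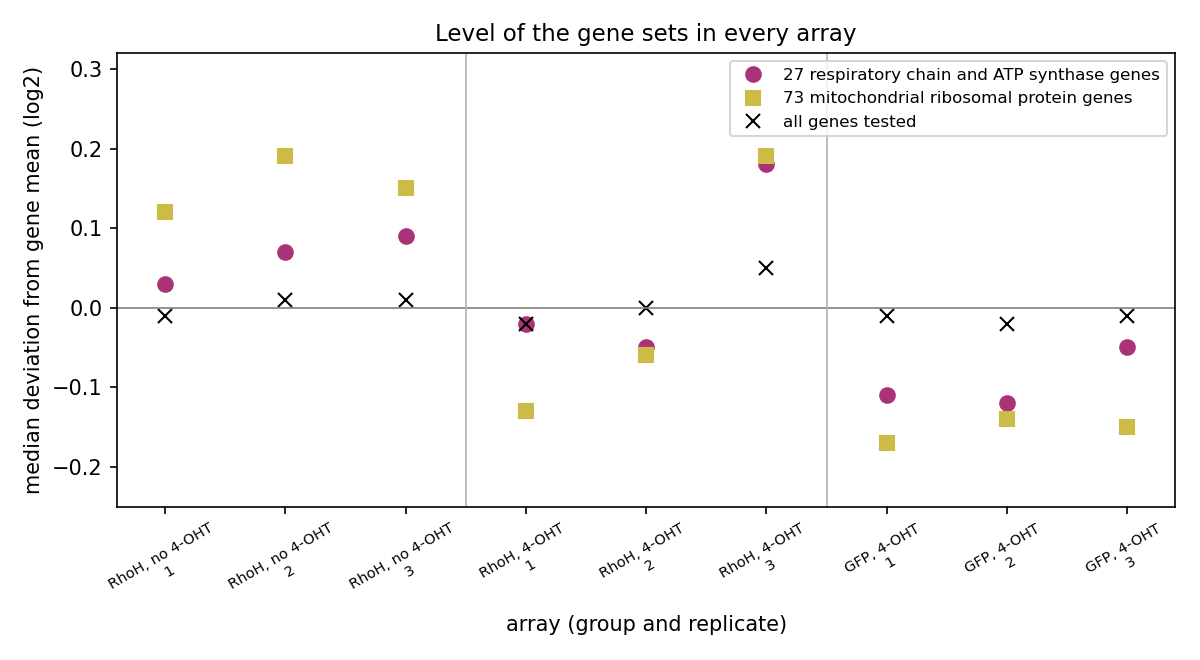
Median deviation of log2 signal from each gene's mean over the 9 arrays (y axis) for the members, the mitochondrial ribosomal protein genes and all genes tested, on each array (x axis). Both mitochondrial sets are above 0 on the 3 uninduced RhoH arrays and on induced RhoH replicate 3, and below 0 on the other arrays, while all genes stay between -0.02 and 0.05.

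Other genes of mitochondrial energy metabolism were read from lists kept apart from the members. None of 13 subunits encoded in mitochondrial DNA was measured as a named gene. Of 14 further subunits and carriers 6 were measured, and between uninduced RhoH and GFP cells 3 were called higher and 1 lower, where 6.01% and 9.27% of all genes were. The higher ones were CYC1, the cytochrome c1 subunit of complex III (0.38), and the outer membrane channels VDAC1 (0.39) and VDAC3 (0.39), and the lower one was ETFDH, which feeds electrons from fatty acid oxidation into the chain (-0.41). Removal of single arrays gave 1 to 5 called genes of this list, with 2 without uninduced RhoH replicate 2 or 3 or GFP replicate 1, and 1 without GFP replicate 2 or 3. Of 40 measured assembly factors of 47 listed, 3 were called higher (7.5%, near the 6.01% of all genes) and none lower. They were COX11, which delivers copper to complex IV (0.77), and UQCC2 (0.72) and BCS1L (0.60), both for complex III. This count was 3 to 5 on removal of single arrays, with 5 without uninduced RhoH replicate 1, induced RhoH replicate 2 or induced RhoH replicate 3. Of 10 measured tricarboxylic acid cycle genes of 18 listed, 1 was called higher (10%, beside 6.01% of all genes) and 1 lower (beside 9.27%). The higher one was DLD (0.33) and the lower one OGDH (-0.72), both parts of the 2-oxoglutarate dehydrogenase complex. The number of called genes of this list was 1 to 3 on removal of single arrays, and 1 without uninduced RhoH replicate 2 or 3 or any single GFP array. Between the same groups, none of the 6 measured regulators of mitochondrial biogenesis was called by limma, and 0 had an unadjusted p under 0.05. Removal of single arrays gave 0 to 1 called regulators, and quantile normalization again called 2, both higher. That setting also called 5 subunits or carriers, 7 assembly factors and 4 tricarboxylic acid cycle genes. On induction, 1 regulator was lower with an unadjusted limma p under 0.05. In the other comparisons no gene of these 4 measured lists was called, although some alternatives made calls. On induction, quantile normalization again called 3 assembly factors and 1 subunit or carrier lower. Between induced RhoH and GFP cells, 2 assembly factors were called higher without induced RhoH replicate 2, and 2 tricarboxylic acid cycle genes lower without induced RhoH replicate 3.

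The mitochondrial ribosomal protein genes, whose products translate the mitochondrially encoded subunits of these complexes, were read in the same way. Of 73 measured genes, 23 were called higher in uninduced RhoH than in GFP cells and 0 lower (31.5% higher, against 6.01% of all genes), with a median log2 fold change of 0.32, where the members had 0.16 and all genes 0.05. The largest were MRPL15 (0.98), MRPL48 (0.83), MRPL24 (0.74) and MRPL57 (0.71). The count ran from 8 without GFP replicate 3 to 35 without induced RhoH replicate 3. It was also at or below 15 without uninduced RhoH replicate 2 (11), uninduced RhoH replicate 3 (15), GFP replicate 1 (11) or GFP replicate 2 (10). On induction 0 were called higher and 3 lower, namely MRPL15 (-0.63), MRPS31 (-0.43) and MRPL48 (-0.42), which became 11 lower without induced RhoH replicate 3 and 0 without uninduced RhoH replicate 3. Between induced RhoH and GFP cells only MRPL48 was called (0.40). That count was 0 without GFP replicate 1 or 3, 2 without induced RhoH replicate 1 and 5, of which 1 was lower, without induced RhoH replicate 2. Quantile normalization again gave 38 calls in uninduced RhoH against GFP, 7 on induction and 5 in induced RhoH against GFP. A test of the difference between these genes and the members was not run.

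Among the members, profiles over the 9 arrays were alike for most and apart for a few. The Pearson correlation of a member with the mean of the other members had a median of 0.61, was above 0.5 for 19 members and below 0 for 4 (COX7A2L, NDUFAF7, COX8A and UQCRB). It was highest for UQCRHL (0.94), COX5A (0.92) and UQCRC1 (0.91). These values describe 9 arrays that share a normalization and, in part, a group, and carry no test. Of 7377 other genes with an above-median spread over the arrays, the 10 with a profile most like the mean of the members were FJX1 (r = 0.984), DBP (0.981), PHB2 (0.978), ZNF593 (0.978), NME1-NME2 (0.975), GSS (0.973), LRRC47 (0.973), MRPL23 (0.971), FBL (0.963) and WDR83OS (0.963).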

How the data were processed

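The authors deposited 1 table of log2 values for 43550 probe sets on 9 arrays. The submitters' processing notes name RMA, limma and Affymetrix Power Tools, while their versions and any genome build are not given in the sources used here. In RMA, background correction, quantile normalization and summary per probe set compress low signals. Probe sets were named through the platform annotation (1 symbol for 15659, several for 0, none for 27891), with symbols updated by Entrez identifier in RefSeq. Each gene kept its brightest probe set by mean over all arrays, giving 14778 genes; no filter on signal was applied, so all 27 members were tested. Groups and replicates come from sample titles. A linear model with 3 group means over all arrays was fitted with limma 3.58.1 in R 4.3.3 (6 residual and 3.86 prior degrees of freedom), checked on simulated data. Named are called members in each comparison (up to 10 per direction), the 5 lowest p-values where under 5 were called, members with a role or tissue form of their own, up to 4 called genes per direction in each list, and the 10 genes most alike in profile. The members and lists were chosen with earlier results of these data known. Alternatives changed the normalization, the filter on dim genes, the probe set choice, the features tested, the arrays fitted, array weights and a replicate block. The number of arrays limits the precision.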

Additional observations from a re-analysis of the deposited data

How the results depend on the processing

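There were 18 alternatives. In uninduced RhoH against GFP, no member was called lower in any alternative, and the number called, 6 with all arrays, was 2 with all probe sets tested, 10 with array weights and 2 to 6 when arrays were left out one at a time. The median fold change was 0.16, 0.21 with array weights and 0.13 to 0.20 when arrays were left out. On induction the number was 0, but 1 with array weights and 0 to 1 when arrays were left out. Induced RhoH against GFP gave 0 called members in each alternative. COX6A1 was at -0.01 with the mean of its probe sets. RHOH on induction was no longer called after median centring (0.36), with all probe sets (0.38), with only the 6 arrays compared (0.38) and without both RhoH replicate 1 arrays (0.39), and ran from 0.32 to 0.45 when arrays were left out. Against GFP, induced RHOH passed the threshold after quantile normalization again (-0.37), and ran from -0.40 to -0.26 when arrays were left out. With a replicate block, 5 members were called in uninduced RhoH against GFP (COX8C was not) and 0 in the other comparisons. Same-numbered arrays deviated together at a correlation above 0.1 in 5 of 9 pairs (-0.03 to 0.54). In 7 of 9 cases an array correlated best with the array of its own number in the other group. The highest value, 0.54, was between the replicate 1 arrays of uninduced and induced RhoH. The main fit did not take the numbers as pairs, and whether same-numbered arrays share an effect was not tested. Without both RhoH replicate 1 arrays 6 members were called, 4 of them shared with the 6 above. Scaling moved the median of all genes by at most 0.021, but it changed which members were called. With quantile normalization again, 5 members were called in uninduced RhoH against GFP, 4 of them shared with the 6 above. COX6A1 (0.20) and COX8C (0.25) were no longer called, and UQCRH (0.36) was. Among all genes 18.9% were called with that setting, in place of 15.3%. Dim members (COX7A1, COX7B2 and COX8C) are limited by signal near the background.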

Other observations

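The rule left out 3 named genes that match its patterns. NDUFA6-DT, a divergent transcript, was at 6.60, 6.71 and 6.55 in the means of uninduced RhoH, induced RhoH and GFP cells, NDUFB2-AS1, an antisense transcript, at 7.23, 7.20 and 7.14, and the pseudogene UQCRBP1 at 5.52, 5.47 and 5.49. None was called by limma in any comparison, and none had an unadjusted p under 0.05 (lowest 0.158, for NDUFA6-DT in induced RhoH against GFP).

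The second probe set of COX6A1 was at 5.04, 5.58 and 5.66 on the uninduced RhoH arrays, 5.19, 5.42 and 5.65 on the induced RhoH arrays and 5.68, 5.94 and 5.81 on the GFP arrays, so every GFP array was above every RhoH array, opposite to the brighter probe set in uninduced RhoH against GFP.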
